A study of Mus musculus and Homo sapiens with 59 samples.

Results

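The numbered zinc finger protein genes, named Zfp and a number, were followed through every mouse arm of a study of plasma membrane permeabilization. They were chosen by name and level: rows of the mouse expression table named Zfp with 2 or 3 digits, leaving out the mRNA-decay factor gene Zfp36, with a mean of 2 TPM or more over the 4 untreated parental libraries. Of 328 such rows, 249 reached that level and 79 did not, in a table of 19407 rows of which 10810 reached it. TPM gives transcript abundance corrected for length and scaled to 1 fixed total per library. These members were compared as a class of transcripts regarded as short-lived. No lifetime was measured here.

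Zfp genes encode proteins in which repeated C2H2 fingers, each folded around a zinc ion, read DNA or RNA. Many also carry a KRAB box, which recruits the corepressor TRIM28 (KAP1) and with it histone methyltransferases and heterochromatin proteins. KRAB zinc finger genes arose by tandem duplication, sit in clusters, and are known for silencing retroelements and for transcripts that decay quickly, so that their level can follow transcription within hours.

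Poly(A)-selected RNA of 2 mouse lines was measured in 51 libraries of 26 groups: NIH3T3, an embryonic fibroblast line (35 libraries), and LLC, a Lewis lung carcinoma line (16 libraries). Cells of the MLKL groups carried hMLKL1–181-2Fv, an amino-terminal piece of human MLKL, the pore-forming executioner of necroptosis, on domains that the dimerizer AP20187 brings together (100 nM for 1 h). Cells of the GSDMD groups carried mGSDMD1-276-HBD, the pore-forming piece of mouse gasdermin D of pyroptosis, and were given 4OHT (4-hydroxytamoxifen, 50 nM for 2.5 h). Parental cells of both lines were given digitonin, a detergent that binds membrane cholesterol (55 µg/mL for 3 h).

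Every arm was set against its own untreated cells in complete DMEM, except 1 NIH3T3 MLKL arm whose treated and untreated cells were both in calcium-free DMEM. Another 4 pairs of NIH3T3 groups, titled siCTR, siPKC, noko and p65ko, carried the MLKL construct in treated and untreated cells alike. The parental controls were NIH3T3 given AP20187 and LLC given 4OHT. The labels do not say whether the construct lines or the p65ko cells were clones or pools, how long cells were in calcium-free medium, or whether libraries of a group were separate cultures, so the p-values measure the spread between these libraries only, which may be technical. Groups had 2 libraries, apart from siPKC given AP20187 with 1, whose spread was taken from the other groups. In bulk RNA, fewer cells of a type and less RNA per cell cannot be told apart.

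The targeted genes went with the labels: Rela, which encodes p65, was at 13.6 and 14.1 TPM in untreated p65ko cells against 49.7 and 49.2 TPM in noko cells, and Prkca, a protein kinase C gene, at 7.46 and 8.05 TPM in untreated siPKC cells against 31.0 and 32.7 TPM in siCTR cells. All 7 fibroblast markers were at 1 TPM or more (median) in NIH3T3 and 3 of 7 in LLC, with a median sum of 1485 and 197 TPM. Of the epithelial markers 3 of 5 reached it in LLC and 0 of 5 in NIH3T3. Endothelial markers did so in 1 of 3 cases in NIH3T3 and 0 of 3 in LLC. Macrophage markers reached 1 TPM in 3 of 5 cases in NIH3T3, where their sum ran from 7.98 to 25.2 TPM, and in 1 of 5 in LLC. In siCTR untreated replicate 2, small RNA and ribosomal RNA genes took 67788 TPM against 8807 TPM in replicate 1, so siCTR counts and named changes are given with and without it, where the lone untreated library was assumed to vary like the other groups. Both treated LLC MLKL libraries are titled r2.

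The level rule itself was a description. The median member stood at 8.23 TPM, and 34 members stood at 20 TPM or more. Just inside the limit were Zfp182 (2.00 TPM), Zfp658 (2.02 TPM) and Zfp607 (2.09 TPM). Just outside were Zfp775 and Zfp850 (both 1.95 TPM) and Zfp235 (1.87 TPM). The highest was Zfp207 at 288 TPM, a spindle assembly factor better known as BuGZ, followed by the ubiquitin ligase Zfp91 (73.5 TPM), the RNA-binding Zfp106 (72.3 TPM), Zfp146 (69.3 TPM) and Zfp706 (60.8 TPM). Resting levels differed 2-fold or more between the lines for 31 members, 20 of them higher in NIH3T3 and 11 in LLC.

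By the GENCODE vM21 proteins (GRCm38), 241 of 248 matched members held a C2H2 finger pattern, with a median of 10 fingers and up to 37 in Zfp142. A KRAB box pattern was found in 121 members and not in 127, and Zfp607 was not matched. The members' transcripts had a median length of 3424.5 bases, against 3024 bases for other genes of the same level range (2 TPM to the level of Zfp207). The pentamer ATTTA, the core of AU-rich decay elements, stood in the 3′ UTR of 78.6% of members, 68.8% of those other genes and 17.1% of ribosomal protein genes, whose 3′ UTRs are short (median 73.5 bases against 1276 bases in members).

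Of the 249 members, 59 lie on chromosome 7, 33 on chromosome 17 and 20 on chromosome 13. The largest runs with gaps of at most 1e+06 bases were 18 members on chr17:21008903-23599487, 12 on chr7:29768552-30169750 and 11 on chr13:67069399-67827002.

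The promoters of 5 members with uniform changes are printed: Zfp60 and Zfp157, which fell in 6 of 6 arms named later, and Zfp655, Zfp948 and Zfp800, which rose in 5 or 6 of them. Zfp41 fell and Zfp52 rose in 6 of 6 as well, but Zfp41 had no usable window and that of Zfp52 is not printed. Each printed window is the 250 bases before the RefSeq transcription start (GRCm38.p6), written 5′ to 3′ on the gene's own strand. Zfp60 lies on the plus strand of chromosome 7, with its window at chr7:27731159-27731408. The window of Zfp157 is chr5:138441226-138441475 (plus strand), that of Zfp655 is chr5:145231492-145231741 (plus), that of Zfp948 is chr17:21566728-21566977 (plus) and that of Zfp800 is chr6:28398006-28398255 (minus). Capitals mark matches to the searched motifs.
Zfp60: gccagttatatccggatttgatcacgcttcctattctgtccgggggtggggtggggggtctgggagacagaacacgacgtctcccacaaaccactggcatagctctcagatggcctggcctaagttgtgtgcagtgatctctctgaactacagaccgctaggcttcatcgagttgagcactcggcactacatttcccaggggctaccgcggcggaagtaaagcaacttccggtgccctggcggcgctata
Zfp157: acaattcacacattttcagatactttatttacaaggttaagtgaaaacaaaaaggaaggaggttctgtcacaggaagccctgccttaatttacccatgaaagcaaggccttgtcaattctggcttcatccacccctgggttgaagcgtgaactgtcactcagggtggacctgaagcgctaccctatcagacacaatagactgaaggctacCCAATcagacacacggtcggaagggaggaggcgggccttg
Zfp655: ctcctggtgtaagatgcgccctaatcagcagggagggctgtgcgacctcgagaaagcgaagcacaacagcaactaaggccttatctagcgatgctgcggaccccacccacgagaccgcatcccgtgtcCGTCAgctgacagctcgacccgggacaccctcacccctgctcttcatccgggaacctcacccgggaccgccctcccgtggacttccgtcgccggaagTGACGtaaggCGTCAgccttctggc
Zfp948: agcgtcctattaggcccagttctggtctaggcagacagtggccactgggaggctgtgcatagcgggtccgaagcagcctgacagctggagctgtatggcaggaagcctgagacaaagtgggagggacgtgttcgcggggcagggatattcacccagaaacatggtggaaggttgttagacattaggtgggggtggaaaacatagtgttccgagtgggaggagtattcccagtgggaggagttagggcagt
Zfp800: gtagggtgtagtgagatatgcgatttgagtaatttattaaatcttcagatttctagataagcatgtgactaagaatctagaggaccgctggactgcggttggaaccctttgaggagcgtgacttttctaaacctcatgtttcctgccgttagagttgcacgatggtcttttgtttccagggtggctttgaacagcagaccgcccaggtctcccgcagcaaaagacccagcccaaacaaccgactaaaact

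Zfp655 held 3 copies of TGACG, the core of the cAMP response element, at 122, 25 and 15 bases before the start, and Zfp157 held 1 CCAAT box at 40 bases. The windows of Zfp60, Zfp948 and Zfp800 held none of the motifs searched. These were TGACG, the full element TGACGTCA (which contains it), the AP-1 site TGANTCA, the CCAAT box, the E-box CACGTG, the GC box GGGGCGGGG and, by name alone, the NF-kB, NRF1, CArG and ZBTB33 motifs, on both strands.

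Among 206 members with a window, TGACG stood in 28.64%, beside 28.68% of the 8503 other tested genes. CCAAT boxes stood in 56.07% of KRAB members, 39.39% of the members without a KRAB box and 37.5% of other genes. GC boxes ran the other way, at 3.738%, 22.22% and 20.84%. Median GC content was 52% in KRAB members and 59.6% in the others, against 60.4% in other genes. A match is a run of letters, not a measured binding site.

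In NIH3T3 MLKL cells 1 h of AP20187 lowered many members and raised few. Of 245 tested members, 92 fell (16.5% of all genes tested fell) and 28 rose (15.8% of all genes rose), by limma on log2(TPM + 1) with a Benjamini-Hochberg adjusted p under 0.05 over all genes. The median log2 fold change was -0.14, against -0.02 over all genes. The count of falls rested on the libraries and the fit: it was 57 without untreated replicate 2 and 50 when the model held only these 4 libraries. With no filter on low values, 83 of all 249 members fell and 26 rose.

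Genes of like level give the closer comparison. Among the other genes between 2 TPM and the level of Zfp207, 1666 of 9776 fell and 1654 rose. The members differed from them most at low levels: between 2 and 5 TPM, 37 of 74 members fell and 0 rose, while 113 of 1103 other genes fell and 150 rose. At 20 TPM or more, 10 of 34 members fell and 8 rose, beside 1048 and 926 of 5392 other genes. Ribosomal protein genes had a median of -0.08 and 17 of 82 fell. Across members the Spearman correlation of the change with the resting level was 0.32 (244 members, which share libraries), a description only. The filter of 1 TPM in 2 libraries was passed through 1 of the groups only by 5 members, and all 5 were called. All 5 lie between 2 and 5 TPM, so the 37 falls there rest in part on the filter. Such passes were not counted among the other genes.

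The largest fall was in Zfp87, a KRAB gene with 16 fingers, at 6.02 and 6.29 TPM untreated and 1.71 and 1.92 TPM treated. Its log2 fold change was -1.35 (SE 0.09, limma adjusted p = 1.04e-10). Both treated libraries were far below both untreated ones. Zfp41, a 4-finger gene without a KRAB pattern, went from 4.95 and 4.63 TPM to 1.66 and 1.77 TPM (log2 fold change -1.09, SE 0.09, limma adjusted p = 6.28e-09). Zfp60, with 19 fingers and a KRAB box, went from 8.48 and 8.91 TPM to 4.52 and 4.08 TPM. In these genes, too, the groups did not overlap.

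The rises were led by 2 KRAB genes. Zfp948 went from 27.7 and 27.2 TPM to 63.2 and 57.0 TPM (log2 fold change 1.10, SE 0.07, limma adjusted p = 6.13e-11). Zfp655, whose promoter is printed above, went from 29.6 and 29.7 TPM to 59.9 and 53.0 TPM (log2 fold change 0.90, limma adjusted p = 5.46e-10). Both genes were about 2-fold up within the hour, and their groups were far apart.

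**Figure D1:**
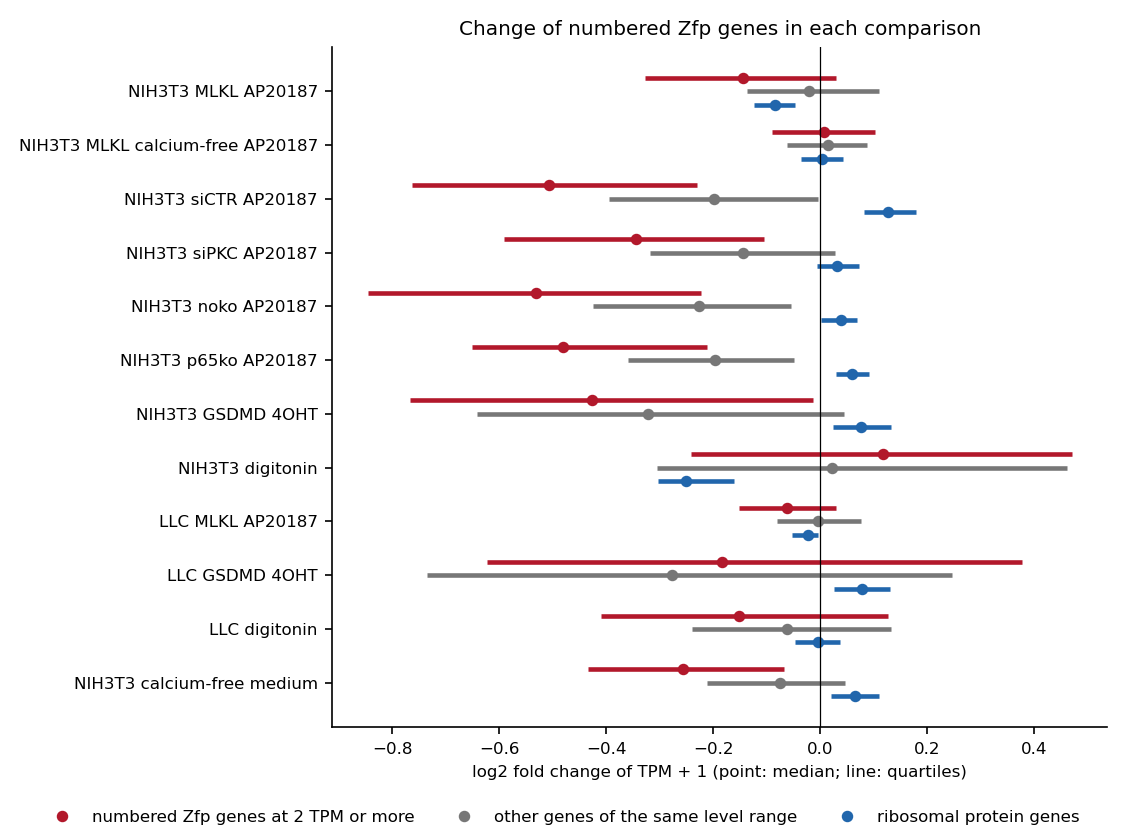
Change of numbered Zfp genes in each comparison. Points are medians and lines quartiles of the log2 fold change of TPM + 1, for the tested members (red), other genes from 2 TPM to the highest member (grey) and ribosomal protein genes (blue). The members' median lay below that of the grey class in the AP20187 arms of complete medium (-0.53 against -0.23 in noko cells), and above it in NIH3T3 digitonin (0.12 against 0.02) and LLC GSDMD (-0.18 against -0.28), where another scaling turns the sign of the members' own median (-0.03 in NIH3T3 digitonin with median centring, 0.13 in LLC GSDMD with quantile normalization).

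The same dimerizer in the 4 other MLKL groups of NIH3T3 gave larger counts. In noko cells 190 of 245 members fell (55.5% of all genes fell) and 18 rose (10.6% of all genes), with a median of -0.53. In siCTR cells 184 of 245 fell (51.8%) and 23 rose (13.7%), with a median of -0.51. Without siCTR untreated replicate 2, 160 of 227 fell and 20 rose, with a median of -0.49. In p65ko cells 187 of 247 fell (50.4%) and 17 rose (8.99%), with a median of -0.48. In siPKC cells 136 of 245 fell (37.5%) and 16 rose (10.5%), with a median of -0.34. In each of the 4, the share of members that fell exceeded that of all genes, and the share that rose was near or below it.

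The bulk of all genes shifted down in these arms, so the scaling matters. The median of all genes was -0.22 in noko, -0.19 in siCTR, -0.19 in p65ko and -0.14 in siPKC cells, and relative to it the members' median was -0.32, -0.32, -0.29 and -0.21. Over the settings tried the offset kept its sign in all 4, at -0.43 to -0.19 in noko, -0.41 to -0.20 in siCTR, -0.38 to -0.23 in p65ko and -0.27 to -0.12 in siPKC cells. Centring each library on its median left 137 members down and 36 up in noko cells, where all genes split to 23.3% down and 27.6% up. The same centring gave 146 down and 39 up in siCTR, 126 and 29 in p65ko, and 107 and 23 in siPKC cells. Quantile normalization gave 126 and 37, 128 and 42, 128 and 29, and 84 and 22 in the same order (noko, siCTR, p65ko, siPKC). Without siCTR untreated replicate 2 the siCTR offset was -0.29, and 120 of 227 members were down and 34 up with median centring, 100 and 37 with quantile normalization.

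At like level the contrast was again largest among low members. In noko cells 70 of 74 members between 2 and 5 TPM fell, against 494 of 1093 other genes, while at 20 TPM or more 16 of 34 members fell, against 3340 of 5388 others. Ribosomal protein genes stayed near their untreated level, with a median of 0.04 and 2 of 82 down. The filter was passed through 1 of the groups only by 15 members in noko, 18 in siCTR, 13 in siPKC and 9 in p65ko cells, nearly all of them called, and with no filter 188, 182, 134 and 183 of all 249 members fell. Most of the 15 in noko cells lie between 2 and 5 TPM, so the 70 of 74 rests in part on the filter. Such passes were not counted among the other genes.

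Zfp60 fell most in noko cells, from 7.70 and 7.74 TPM to 1.83 and 1.59 TPM (log2 fold change -1.69, SE 0.11, limma adjusted p = 6.36e-11). Zfp251, a KRAB gene with 11 fingers on chromosome 15, was at 10.6 TPM in both untreated noko libraries and at 2.75 and 2.72 TPM in the treated ones (-1.64). Zfp41 went from 3.81 and 3.52 TPM to 0.663 and 0.717 TPM, under the filter's limit in the treated group. The treated libraries of all 3 lay far below the untreated ones. Zfp746, the parkin substrate known as PARIS, was at 21.2 and 20.3 TPM untreated and at 8.71 and 9.29 TPM treated (-1.12).

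Across the 5 NIH3T3 AP20187 arms in complete medium, 70 of 243 members tested in each fell in all 5 (28.8%, beside 11.4% of all genes). Another 10 rose in all 5 (4.12%, beside 5.28% of all genes): Zfp131, Zfp281, Zfp367, Zfp384, Zfp52, Zfp592, Zfp609, Zfp655, Zfp747 and Zfp948. Without siCTR untreated replicate 2, 63 of 227 fell in all 5 (27.8%, beside 11.7%) and 9 rose. Median centring gave 57 and 15 (6.72% and 7.92% of all genes), and quantile normalization 45 and 17 (9.24% and 7.23% of all genes). The arms do not share libraries. In parental NIH3T3, which lack the construct, AP20187 left a median of 0.00, a description only since the untreated libraries chose the members.

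Calcium-free medium changed the response of many members. In MLKL cells kept without calcium, 11 of 241 tested members fell on AP20187 (3.42% of all genes) and 2 rose (2.27%). The median was 0.01, and it changed sign under other scalings (-0.02 with quantile normalization). The largest falls were in Zfp566 (from 4.05 and 5.02 TPM to 3.24 and 2.29 TPM), Zfp422 (which passed the filter through 1 of the groups only), Zfp703 and Zfp367, and the 2 rises were in Zfp950 and, by 0.11 (log2, limma adjusted p = 0.0484), Zfp207. Leaving out single libraries left 5 to 8 falls and 0 or 1 rises.

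The test of the difference between the 2 media, calcium-free minus complete, called 61 of 247 members higher (10.8% of all genes) and 26 lower (11.1%). These responses use different libraries. Of the 61 called higher, 56 were genes that fell in complete medium, and of the 26 called lower, 19 were genes that rose there. The change in complete medium is a term of this difference, so the overlap is largely set by the test. Its share over all genes was not counted. Zfp273, Zfp85 and Zfp953, among the 61, missed the filter in the calcium-free arm and were not tested there. With only the 8 libraries of the comparison in the model the counts were 38 and 17. KRAB members made up 38 of the 61 higher calls, from 119 tested, and members without a KRAB box 23, from 127 tested.

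Zfp655 had the largest difference downward. It went from 28.1 TPM in both libraries to 23.8 and 21.4 TPM without calcium, a fall (-0.30, limma adjusted p = 0.00712), against a rise of 0.90 with calcium. The difference was -1.21 (SE 0.09, limma adjusted p = 2.49e-09). Its neighbours in the ranking were Zfp948 (31.2 and 32.0 TPM to 35.1 and 34.7 TPM, difference -0.96) and Zfp281, a GC-rich promoter binder (6.85 and 6.95 TPM to 5.44 and 5.65 TPM, difference -0.94). In none of these did treated cells without calcium reach the level of treated cells with it.

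Zfp41 had the largest difference upward, 1.38 (SE 0.13, limma adjusted p = 6.38e-08). Without calcium it was at 1.85 and 1.97 TPM untreated and at 2.67 and 2.46 TPM treated, a change that did not pass (0.29, limma adjusted p = 0.0676). Zfp87 (1.26 and 1.17 TPM, then 1.07 and 1.14 TPM, difference 1.27) and Zfp707 (2.63 and 2.81 TPM, then 3.44 and 4.09 TPM, difference 1.16) followed. These genes were already low before the dimerizer when calcium was absent.

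That low start was a wider pattern. Untreated MLKL cells in calcium-free medium, set against untreated cells in complete medium, had 131 of 246 members lower (27.7% of all genes) and 7 higher (8.55%), with a median of -0.26 against -0.07 over all genes. Median centring gave 99 lower and 21 higher, and quantile normalization 100 and 21. This comparison shares its complete-medium libraries with the MLKL arm and its calcium-free ones with the calcium-free arm. Zfp87 stood at 0.197 of its complete-medium level (log2 fold change -1.69, limma adjusted p = 4.08e-12), Zfp60 at 0.427 (-1.04) and Zfp41 at 0.399 (-0.99). Zfp384 rose most, from 37.5 and 41.2 TPM to 51.1 and 51.9 TPM, followed by Zfp566. A low level before treatment leaves less room for a further fall on the log2(TPM + 1) scale, and its part in the difference between media was not tested.

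**Figure D2:**
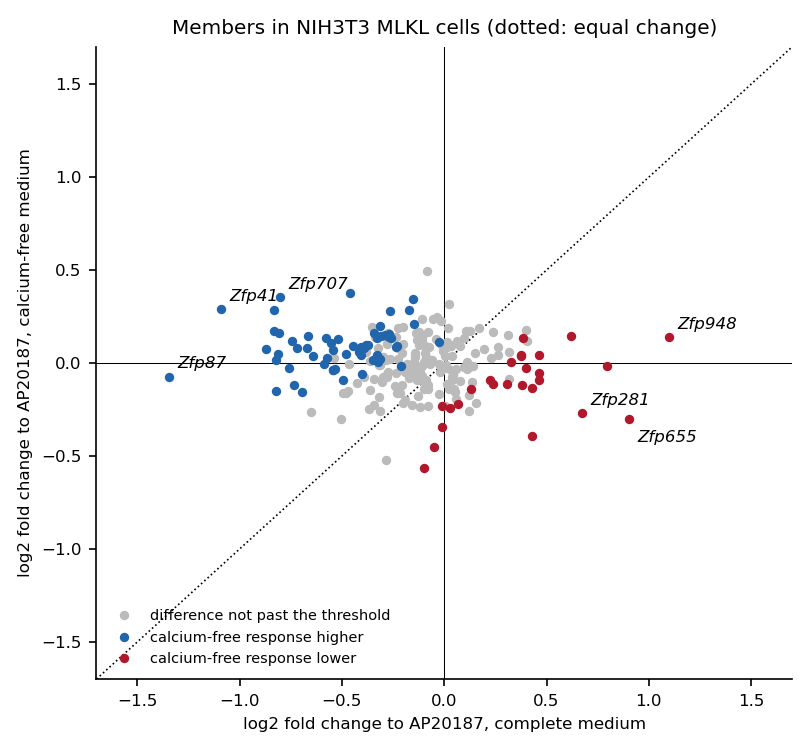
Members in NIH3T3 MLKL cells. Each point is 1 member, with its log2 fold change of TPM + 1 on AP20187 in complete medium (x axis) and in calcium-free medium (y axis), and the dotted line marks equal change. The 61 blue and 26 red members differed between media (limma). Most are spread along the x axis more than the y axis, while Zfp566, Zfp703 and Zfp367, the lower red points, are at -0.56, -0.45 and -0.39 on the y axis.

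The knockdown and knockout arms differed from their controls in few members. The siPKC response minus the siCTR response was higher for 19 of 247 members (4.96% of all genes) and lower for 3 (3.33%). With only the compared libraries in the model, 0 were higher and 0 lower, so that every call ended. Without siCTR untreated replicate 2 it was higher for 18 and lower for 5, and without siPKC untreated replicate 1 it was higher for 4. The largest of those called was in Zfp251, which fell from 11.004 and 11.98 TPM to 2.60 and 3.12 TPM in siCTR cells and from 11.2 TPM in both libraries to 5.53 TPM in the treated siPKC library (difference 0.80, SE 0.11, limma adjusted p = 0.000102, and 0.74 without siCTR untreated replicate 2). Zfp622, a factor of 60S ribosome maturation, rose in siCTR cells (30.3 and 29.9 TPM to 38.2 and 38.5 TPM) and stood at 34.1, 34.4 and then 33.7 TPM in siPKC cells. Without siCTR untreated replicate 2 its siCTR change was 0.33 (limma adjusted p = 0.00042).

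The p65ko response minus the noko response was higher for 10 of 248 members (2.34% of all genes) and lower for 1 (1.76%). The counts of higher calls without single libraries ran from 2 to 7. Among the members called, Zfp72 had the largest difference (0.81, SE 0.19, limma adjusted p = 0.0171), at 3.84 and 3.21 TPM then 0.779 and 0.468 TPM in noko cells, and at 2.83 and 3.35 TPM then 1.44 and 1.69 TPM in p65ko cells. Zfp110, a KRAB gene, fell in both, by 0.98 in noko and 0.40 in p65ko cells (difference 0.59, limma adjusted p = 2.01e-05). Zfp703, a corepressor known from luminal breast cancer, was the member called lower (-0.47), with 11.7 and 11.2 TPM then 19.0 and 18.7 TPM in noko cells. The shares of members called were low in both comparisons, as were those of all genes.

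In NIH3T3 GSDMD cells 163 of 248 members fell on 4OHT (58.6% of all genes fell) and 44 rose (20% of all genes). The median was -0.43, against -0.29 over all genes, an offset of -0.13 (-0.32 to -0.05 over settings). Median centring gave 114 down and 72 up, with all genes at 37% down and 34.7% up, and quantile normalization 110 and 69. The share of members that fell, 65.7%, was thus closer to that of all genes than in the NIH3T3 AP20187 arms in complete medium. The contrast stayed in the low members: 58 of 77 between 2 and 5 TPM fell, beside 528 of 1092 other genes, and 15 of 34 at 20 TPM or more, beside 3510 of 5391. The filter was passed through 1 of the groups only by 10 members, Zfp41 and Zfp324 among them. Most of the 10 lie between 2 and 5 TPM, so the calls in that band rest in part on the filter.

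Zfp41 went from 4.26 and 4.77 TPM to 0.482 and 0.388 TPM (log2 fold change -1.94, SE 0.09, limma adjusted p = 3.32e-14), the largest fall of a member in any arm. Zfp503, a developmental repressor without a C2H2 pattern, went from 21.3 and 22.9 TPM to 4.38 and 5.78 TPM (-1.93). It was at 0 TPM in the LLC GSDMD libraries, so it was followed in NIH3T3 alone. Zfp324, a KRAB gene, was at 3.02 and 3.19 TPM and then at 0.282 and 0.430 TPM (-1.60).

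Zfp655 rose most, from 24.6 and 21.8 TPM to 104 and 95.6 TPM (log2 fold change 2.06, SE 0.07, limma adjusted p = 6.72e-17). Zfp622 was next, from 22.6 and 20.9 TPM to 60.8 and 58.8 TPM (1.42). Treated and untreated libraries of both genes were well apart.

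In LLC GSDMD cells the same construct and dose gave 111 of 243 members lower (54% of all genes) and 78 higher (27.9%). The median was -0.18, against -0.25 over all genes, and it was 0.13 with quantile normalization, which gave 70 lower and 111 higher, while median centring gave 89 and 94. Relative to all genes the members' median was 0.07, with -0.10 to 0.23 over settings, so its direction turned with the setting. Zfp324 and 4 other members passed the filter through 1 of the groups only, and all 5 were called. The largest falls were in Zfp324 (5.13 and 4.59 TPM to 0.476 and 0.709 TPM, -1.88), Zfp13, Zfp637 (24.3 and 24.2 TPM to 5.22 and 7.77 TPM, -1.77) and Zfp523. Zfp703 rose most, from 15.6 and 16.4 TPM to 74.8 and 77.9 TPM (2.18, SE 0.05, limma adjusted p = 6.56e-12), followed by Zfp655 (19.98 and 17.99 TPM to 78.2 and 70.5 TPM, 1.91). In parental LLC without the construct 4OHT left a median of 0.05, a description only.

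LLC MLKL cells changed little. Of 244 members 7 fell (2.08% of all genes) and 3 rose (5.48%), with a median of -0.06. Leaving out any 1 of the 4 libraries left 2 or 3 falls and 1 rise. Zfp41 led the falls, from 8.72 and 9.05 TPM to 5.16 and 5.42 TPM (-0.65, SE 0.08, limma adjusted p = 0.000497), and the others were Zfp273, Zfp526, Zfp760, Zfp60, Zfp157 and Zfp687. The rises were in Zfp296, Zfp52 and Zfp800. Zfp655, at 16.6 and 17.2 TPM and then 18.6 and 17.7 TPM, did not pass (limma adjusted p = 0.51).

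Digitonin raised and lowered many members in both lines. In NIH3T3, 103 of 238 members rose (39.3% of all genes) and 61 fell (34.2%), with a median of 0.12 that was -0.03 with median centring, where 81 rose and 84 fell, and quantile normalization gave 88 and 79. In LLC, 98 of 244 fell (32.2%) and 43 rose (20.3%), with a median of -0.15. Relative to all genes the members' median was 0.10 in NIH3T3 (0.01 to 0.14 over settings) and -0.10 in LLC (-0.15 to -0.04). Ribosomal protein genes moved the other way in NIH3T3, with 69 of 82 lower and a median of -0.25. All ribosomal protein genes together took 274916 and 270521 TPM in the untreated NIH3T3 libraries and 230031 and 228227 TPM in the treated ones, and their part in the members' values, which share 1 total with them, was not tested.

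Zfp655 rose most in NIH3T3, from 12.5 and 12.7 TPM to 56.5 and 59.7 TPM (log2 fold change 2.12, SE 0.07, limma adjusted p = 3.07e-17). Zfp367 went from 13.4 and 12.2 TPM to 49.2 and 50.9 TPM (1.89). Zfp800, a factor of pancreatic endocrine development, went from 4.07 and 4.23 TPM to 15.9 and 17.8 TPM (1.79). These genes were about 4-fold up. In LLC the largest rises were in Zfp703 (21.1 and 23.2 TPM to 45.1 and 46.3 TPM, 1.01) and Zfp655 (20.7 and 17.6 TPM to 37.9 and 37.6 TPM, 0.95).

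In NIH3T3 the largest digitonin falls were smaller than the largest rises, while in LLC the members' changes ran from -1.28 to 1.01. Zfp637 went from 34.4 and 35.2 TPM to 13.6 and 12.9 TPM in NIH3T3 (-1.33, SE 0.08, limma adjusted p = 2.08e-12), followed by Zfp213, Zfp688 and Zfp580. In LLC the largest were in Zfp647, Zfp493, Zfp608 and Zfp324 (2.37 and 2.29 TPM to 0.644 and 0.714 TPM, -0.99). Zfp324 again ended under 1 TPM. The filter was passed through 1 of the groups only by 3 members in LLC digitonin, Zfp324 and Zfp493 among them, and by 3 in NIH3T3 digitonin, and all of these were called.

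**Figure D3:**
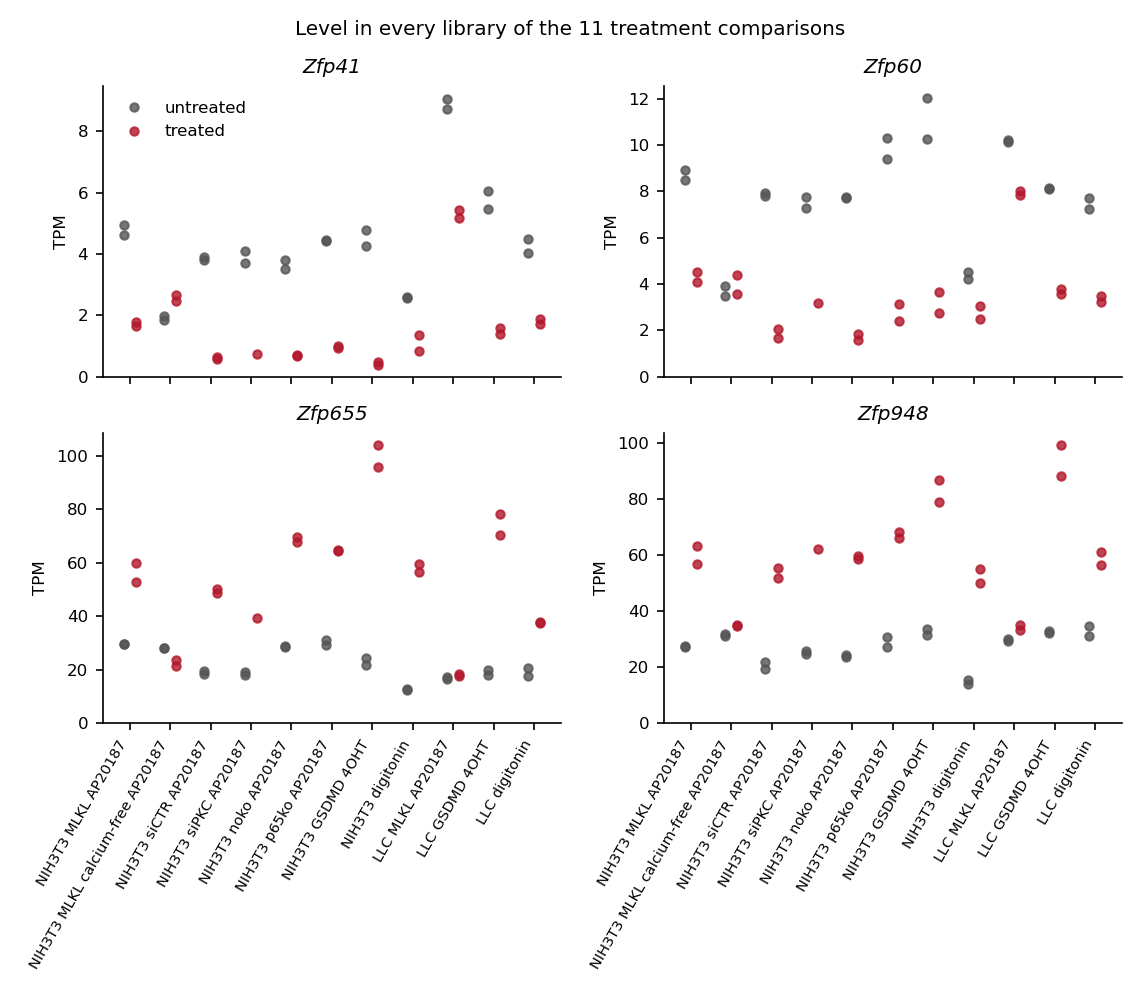
Level of 4 members in every library of the 11 treatment comparisons, in TPM (y axis), with untreated libraries in grey and treated in red. Zfp41 and Zfp60 lie lower in the treated libraries of each comparison but the calcium-free one. Zfp655 and Zfp948 rose past the threshold in each but the calcium-free and LLC MLKL ones, and in LLC MLKL Zfp655 was at 16.6 and 17.2 TPM untreated and 18.6 and 17.7 TPM treated.

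A test of the difference between lines, in 1 model over both and over every member, was added after the values were seen. For digitonin the change was lower in LLC for 130 of 249 members (36% of all genes) and higher for 21 (19.4%). For GSDMD it was higher in LLC for 120 (33.5%) and lower for 28 (27%). For MLKL it was higher in LLC for 34 (5.87%) and lower for 19 (7.05%). These counts include members not tested in 1 of the lines. Those tested in both were 233 for digitonin, 242 for GSDMD and 240 for MLKL. In members nearly absent from 1 line the difference only repeats the change in the other. Examples for digitonin are Zfp13 (called lower, -0.64) and Zfp503 (called higher, 0.66). Digitonin passed the threshold in opposite directions for 22 members that rose in NIH3T3 and fell in LLC (9.44%, beside 7.24% of all genes), and for 2 the other way (0.858%, beside 1.57%). Among the 22, the KRAB gene Zfp65 went from 4.02 TPM in both libraries to 7.30 and 7.69 TPM in NIH3T3 and from 9.71 and 8.39 TPM to 5.59 and 5.18 TPM in LLC (difference -1.41, SE 0.10, limma adjusted p = 1.22e-12).

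For GSDMD, 98 of 242 members fell in both lines (40.5%, beside 45.5% of all genes) and 37 rose in both (15.3%, beside 14.4%). Another 19 fell in NIH3T3 and rose in LLC (7.85%, beside 7.39%), and 2 did the reverse (0.826%, beside 2.58%). These shares were near or below those of all genes. Zfp710 was the widest of the 19 (9.32 and 10.2 TPM to 5.03 and 5.10 TPM in NIH3T3, 7.59 and 7.40 TPM to 9.87 and 10.1 TPM in LLC, difference 1.20, limma adjusted p = 5.15e-11). Zfp697 was the widest of the 2, from 4.74 and 4.85 TPM to 13.8 and 14.5 TPM in NIH3T3 and from 3.25 and 2.82 TPM to 1.76 and 2.12 TPM in LLC (difference -1.84, SE 0.13, limma adjusted p = 1.00e-12). For digitonin 36 of 233 members fell in both lines (15.5%, beside 18.3% of all genes) and 33 rose in both (14.2%, beside 15.7%). Across members the change in one line correlated with that in the other at r = 0.77 for GSDMD (242 members), 0.59 for digitonin (233) and 0.52 for MLKL (240), a description over members that share libraries.

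The MLKL, GSDMD and digitonin arms of both lines gave each member a profile over 6 arms. Of 230 members tested in all 6, 103 had falls and no rise, 52 rises and no fall, 74 both, and 1 had neither. These shares (44.8% with falls alone, 22.6% with rises alone, 32.2% with both) were practically those of all genes (45%, 21.4% and 32%). Falls in all 6 were found in 3 members (1.3%, beside 0.57% of all genes), Zfp41, Zfp60 and Zfp157. Rises in all 6 were found in 2 (0.87%, beside 2.4%), Zfp52 and Zfp800. Setting aside LLC MLKL, 20 fell and 14 rose in all 5 (8.7% and 6.09%, beside 6.54% and 5.77% of all genes). TGACG stood in the promoter windows of 6 of 15 of the former and 5 of 13 of the latter.

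Zfp157, a KRAB gene with 11 fingers, shows the uniform falls at a low level. It went from 6.85 and 6.78 TPM to 3.75 and 3.12 TPM in NIH3T3 MLKL, from 6.59 and 6.25 TPM to 3.33 and 3.79 TPM in NIH3T3 GSDMD, and from 5.87 and 6.06 TPM to 2.63 and 2.65 TPM in LLC GSDMD. Its smallest change was in LLC MLKL (-0.25, limma adjusted p = 0.028). Zfp52, a KRAB gene at chr17:21535539-21562601, next to Zfp948 at chr17:21567008-21588699, shows the uniform rises. It went from 63.1 and 64.6 TPM to 81.2 and 68.9 TPM in NIH3T3 MLKL, its smallest rise (0.23, limma adjusted p = 0.0215), and from 47.8 and 48.4 TPM to 98.8 and 106 TPM in NIH3T3 digitonin (1.07). Every treated library of both genes lay beyond its untreated ones in these arms.

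**Figure D4:**
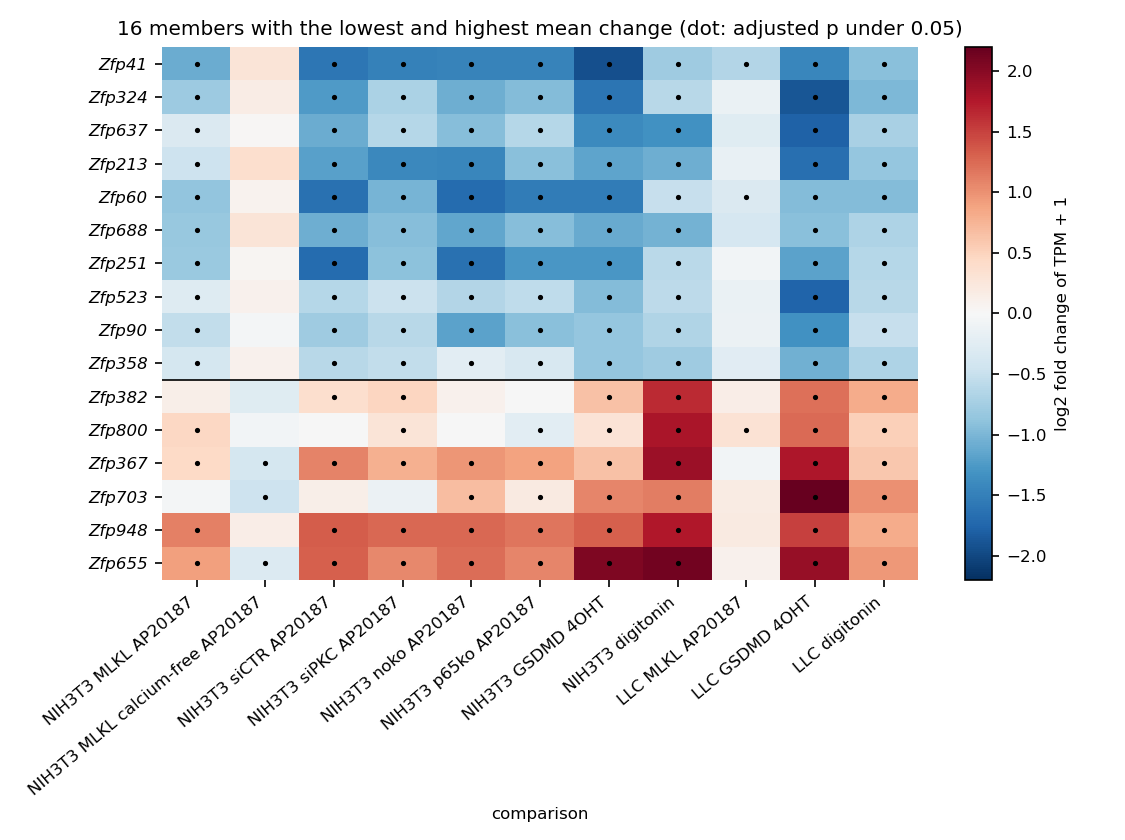
The 10 members with the lowest and the 6 with the highest mean log2 fold change of TPM + 1 over the 6 arms (rows), in the 11 treatment comparisons (columns). Blue is lower and red higher after treatment, and a dot marks an adjusted p under 0.05 (limma). Zfp41 has the lowest and Zfp655 the highest mean, and the calcium-free column is pale, with 3 of the 16 called there.

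Over the 11 treatment comparisons and 9915 genes tested in each, the genes whose changes lay nearest to those of Zfp41 by Euclidean distance were the pseudogene Zfp862-ps (0.92), Zfp60 (0.97) and A930004D18Rik (1.03).

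The members with and without a KRAB box were also counted apart. In NIH3T3 MLKL cells 50 of 118 KRAB members fell and 42 of 126 others. In noko cells 101 of 118 KRAB members fell, with a median of -0.73, and 88 of 126 others, with a median of -0.34. The counts were 98 of 118 and 85 of 126 in siCTR (85 of 105 and 75 of 121 without its untreated replicate 2), 96 of 119 and 90 of 127 in p65ko, and 73 of 117 and 63 of 127 in siPKC cells. The share that fell was higher among KRAB members in each of these arms, and in both classes above that of all genes. The difference between the classes was not tested here or in the arms that follow.

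After 4OHT the classes were nearer. In NIH3T3 83 of 120 KRAB members and 80 of 127 others were down (58.6% of all genes). In LLC 60 of 120 and 50 of 122 were down, both below the 54% of all genes. Rises in LLC GSDMD were 25 among KRAB members and 53 among the others (27.9% of all genes rose). Digitonin in NIH3T3 gave 20 of 112 KRAB members down and 41 of 125 others (34.2% of all genes), with 48 and 55 up (39.3%). In LLC digitonin 57 of 120 KRAB members fell, and 40 of 123 others (32.2% of all genes). In NIH3T3 digitonin the falls thus made up the smaller share among KRAB members, while in LLC digitonin they made up the larger.

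**Figure D5:**
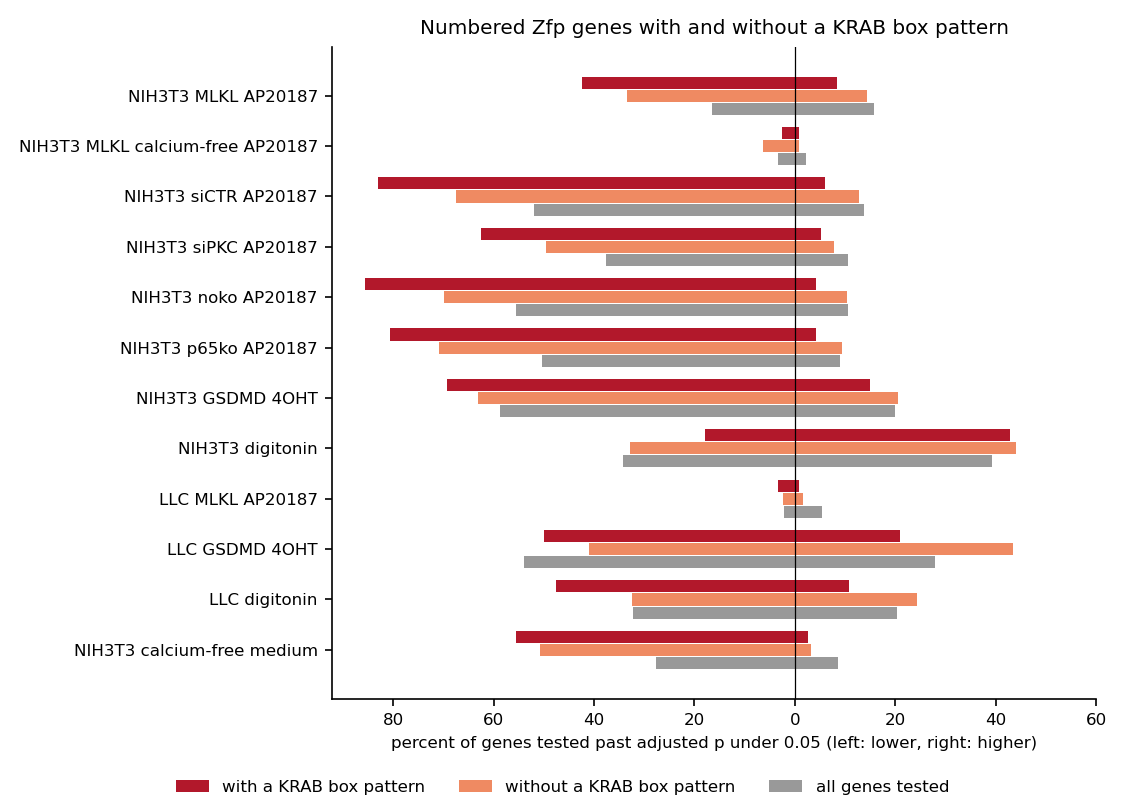
Share of genes past adjusted p under 0.05 (limma) in each comparison, lower to the left and higher to the right, in percent of the genes tested. Bars show members with a KRAB box pattern (dark red), members without one (orange) and all genes (grey). In noko cells 101 of 118 KRAB members and 88 of 126 others fell, as did 55.5% of all genes. In LLC GSDMD 25 of 120 KRAB members and 53 of 122 others rose, as did 27.9% of all genes.

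The KRAB corepressor and heterochromatin list, 17 genes with TRIM28 at the head, was counted in the same way. In NIH3T3 GSDMD cells 16 of 17 fell and 1 rose (58.6% and 20% of all genes), with Uhrf1, a reader of hemimethylated DNA, at -1.18, the heterochromatin protein gene Cbx5 at -1.32, the methyltransferase gene Setdb1 at -1.05 and Trim28 at -0.45 (log2 fold changes, each past the threshold). In LLC GSDMD 10 fell and 4 rose, shares near those of all genes (54% and 27.9%), with Trim28 at 0.10. In NIH3T3 digitonin 2 fell and 10 rose (34.2% and 39.3% of all genes), with the remodeller gene Chd4 at 0.93. The counts of these lists were made on the deposited scaling alone. The MLKL arms had 5 down and 3 up in NIH3T3 (16.5% and 15.8% of all genes) and 1 down and 1 up in LLC (2.08% and 5.48%). In noko cells 12 were down and 1 up (55.5% and 10.6% of all genes).

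Members with known roles outside KRAB repression behaved differently from one another. Of 14 promoter and chromatin factors, 11 rose and 1 fell in NIH3T3 digitonin (median 0.75, with 39.3% of all genes up and 34.2% down). In LLC GSDMD 10 rose and 1 fell (median 0.52, with 27.9% of all genes up and 54% down), and in noko cells 8 fell and 6 rose (median -0.21, with 55.5% of all genes down and 10.6% up). Zfp131 went from 24.98 and 25.7 TPM to 68.9 and 76.1 TPM in NIH3T3 digitonin (1.48, SE 0.07, limma adjusted p = 5.17e-14), and Zfp292 from 4.23 and 4.32 TPM to 12.4 and 13.4 TPM (1.39). In NIH3T3 GSDMD 8 fell and 5 rose (median -0.21, with 58.6% of all genes down and 20% up). The largest of these falls was in Zfp217, known as an amplified oncogene, from 11.5 and 11.2 TPM to 4.58 and 4.55 TPM (-1.15). Zfp281 rose with AP20187 in NIH3T3 MLKL (11.7 and 13.0 TPM to 21.0 and 19.6 TPM, 0.67).

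Of 11 members in the RNA, ribosome and spindle list, 1 fell and 2 rose in NIH3T3 MLKL (16.5% and 15.8% of all genes). In noko cells 4 fell and 1 rose (55.5% and 10.6% of all genes), a share of falls below that of all genes. In NIH3T3 digitonin 2 fell (34.2% of all genes) and 5 rose, where 5 of 11 is near the 39.3% of all genes. Zfp207, the most abundant member, did not pass in NIH3T3 MLKL (266 and 268 TPM to 264 and 262 TPM) and rose in NIH3T3 digitonin (214 and 223 TPM to 297 and 315 TPM, 0.48). Zfp706 fell in both GSDMD arms (52.1 and 52.4 TPM to 33.7 TPM in both libraries of NIH3T3, -0.62). In the ubiquitin and SUMO list, Zfp451, a SUMO ligase, rose in both digitonin arms (12.7 and 11.2 TPM to 25.8 and 27.4 TPM in NIH3T3, 1.09) and Zfp746 fell in both (18.6 and 16.9 TPM to 11.2 and 11.3 TPM in NIH3T3, -0.62). Among developmental and imprinting factors, Zfp568, a repressor of placental Igf2 transcripts, rose in both digitonin arms, and Zfp462 fell in LLC digitonin (11.3 and 10.4 TPM to 5.80 and 5.89 TPM, -0.79).

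Members of a cluster are described by their counts beside those of all genes, with no test against members elsewhere. Of the 11 members at chr13:67069399-67827002, among them Zfp87, Zfp85 and Zfp273, 8 of 10 tested fell in NIH3T3 MLKL (16.5% of all genes) with a median of -0.60, 3 of which had passed the filter through 1 of the groups only. In NIH3T3 GSDMD 8 of 11 fell and 0 rose (58.6% and 20% of all genes), with Zfp493 and Zfp953 past the filter through 1 of the groups only. The 5 members at chr15:75616679-76925448 (Zfp41, Zfp623, Zfp707, Zfp251 and Zfp647) had medians of -0.80 in NIH3T3 MLKL, -1.003 in NIH3T3 GSDMD and -0.86 in LLC GSDMD, with 4 of 5 down in each (16.5%, 58.6% and 54% of all genes). Zfp647 in NIH3T3 MLKL, and Zfp41 and Zfp647 in NIH3T3 GSDMD, passed the filter through 1 of the groups only, and all were called. Of the 12 at chr7:29768552-30169750, 8 of 11 tested rose in NIH3T3 digitonin (39.3% of all genes) and 7 of 12 in LLC GSDMD (27.9%). Other arms went differently: 7 of these 12 fell and 4 rose in NIH3T3 GSDMD (58.6% and 20% of all genes). In LLC digitonin 4 fell and 3 rose (32.2% and 20.3%), and in NIH3T3 MLKL 4 fell and 1 rose (16.5% and 15.8%). The 18 on chromosome 17 that include Zfp52 and Zfp948 had 12 of 17 down and 3 up in NIH3T3 GSDMD, a share of falls near the 65.7% of all members, and the risers stood beside genes that fell. Zfp947 of this run passed the filter there through 1 of the groups only. Clustered genes are often near-identical copies, and how reads were divided between such copies can make single values uncertain.

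Zinc finger genes outside the rule differed among themselves. In noko cells, where 55.5% of all genes fell and 10.6% rose, 11 of 15 Zkscan and Zscan genes fell and 0 rose, while 19 of 34 Zbtb genes fell (55.9%) and 9 rose (26.5%). In NIH3T3 digitonin, where 39.3% of all genes rose and 34.2% fell, 3 of 15 Zkscan and Zscan genes rose and 6 fell, and 20 of 33 Zbtb genes rose (60.6%) and 9 fell. Of the numbered Zfp rows under 2 TPM, 17 passed the filter in noko cells and 15 fell. Few rows under 2 TPM pass the filter, and those that pass through their untreated level alone had to differ.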

How the data were processed

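Expression was deposited as TPM per gene, estimated by the authors with Salmon, with mm10 for mouse, per the submitters' processing notes. The Salmon version, its index and any filter were not given in the sources used here. Since TPM keeps no read depth, the depth behind each value is unknown and no count test could be run. The 51 mouse libraries were used, and the human table was not analysed here.

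The members and gene lists were chosen with earlier results of these data known. Values were tested as log2(TPM + 1), with a pseudocount of 1, by limma 3.58.1 (trend) in R 4.3.3, in 1 model per line over all its groups, on genes at 1 TPM or more in at least 2 libraries of a comparison, with Benjamini-Hochberg adjustment over all genes tested. A fold change on this scale understates the change of low genes. Comparisons using the parental untreated libraries, which chose the members, got no test. Named members were the largest called changes in each direction, those called alike in every arm, and those of the role lists. KRAB boxes and C2H2 fingers were found as sequence patterns in proteins translated from GENCODE vM21, and promoters were read from RefSeq. On simulated data for NIH3T3 MLKL (11606 genes), 68% of 1.25-fold, 96% of 1.5-fold and 98% of 2-fold changes were recovered, with 11 false calls. Each share is of 50 changed genes. They were drawn above a level that the lowest members do not reach, and all other genes were left unchanged. Recovery among those lowest members, or where most genes shift, was therefore not tested. Alternatives were a pseudocount of 0.1, median centring, quantile normalization, no filter, no small RNA, removal of a length trend, a model of the compared libraries alone, a block for the replicate number, and dropping each library in turn.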

Additional observations from a re-analysis of the deposited data

Results flagged for a closer look

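Responses that differed between conditions by a test of the difference itself are listed here as values. Calcium-free minus complete medium: 26 members were lower (11.1% of all genes), led by Zfp655 (-1.21), Zfp948 (-0.96) and Zfp281 (-0.94), and 61 higher (10.8% of all genes), led by Zfp41 (1.38), Zfp87 (1.27) and Zfp707 (1.16). The siPKC response minus the siCTR response was lower for 3 members (3.33% of all genes), Zfp142 (-0.41), Zfp622 (-0.36) and Zfp335 (-0.32). It was higher for 19 (4.96% of all genes), led by Zfp251 (0.80), Zfp867 (0.71) and Zfp763 (0.62). None of these lower or higher calls passed when the model held only the compared libraries. The p65ko response minus the noko response was lower for 1 (1.76% of all genes), Zfp703 (-0.47), and higher for 10 (2.34% of all genes), led by Zfp72 (0.81), Zfp110 (0.59) and Zfp760 (0.52). All are differences of log2 fold changes past a limma adjusted p of 0.05, over groups that the arms themselves use.

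Members that passed in opposite directions in the 2 lines also passed the test of the difference between lines, which was chosen after the values were seen. That outcome was nearly fixed beforehand, since 2 called changes of opposite sign add up in the difference, and it adds no support. For GSDMD, 19 fell in NIH3T3 and rose in LLC (7.85%, near the 7.39% of all genes), led by Zfp710 (LLC minus NIH3T3, 1.20), Zfp654 (1.16) and Zfp281 (1.08). The reverse was found in 2 (0.826%, beside 2.58% of all genes), Zfp697 (-1.84) and Zfp57 (-0.48). For digitonin, 2 fell in NIH3T3 and rose in LLC (0.858%, beside 1.57% of all genes), Zfp296 (1.53) and Zfp341 (0.74). The reverse was found in 22 (9.44%, beside 7.24% of all genes), led by Zfp65 (-1.41), Zfp53 (-1.34) and Zfp369 (-1.24).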

How the results depend on the processing

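With a pseudocount of 0.1, 30 of 30 counts of called members stayed within 1.5 times. The other counts below moved beyond that, and the cause was not tested.

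With only the compared libraries in the model, fewer samples set the spread: 50 members fell in NIH3T3 MLKL, 1 fell and 0 rose in its calcium-free arm, 9 rose in siPKC, 3 were higher in calcium-free medium, the calcium difference had 17 lower and 38 higher, and the siPKC difference 0 and 0 (limma, against 3 and 19 with all groups). Median centring gave rises of 1 (calcium-free arm), 39 (siCTR), 36 (noko), 29 (p65ko), 72 (NIH3T3 GSDMD) and 21 (calcium-free medium), 11 lower and 8 higher in the siPKC difference and 2 lower in the p65ko difference. Quantile normalization gave rises of 42 (siCTR), 37 (noko, with 126 falls), 29 (p65ko), 69 (NIH3T3 GSDMD), 5 (LLC MLKL) and 21 (calcium-free medium), falls of 84 (siPKC) and 70 (LLC GSDMD), 6 lower and 9 higher in the siPKC difference, 5 higher in the p65ko difference, and 45 members lower and 17 higher in all 5 NIH3T3 AP20187 arms. Without small RNA and ribosomal RNA genes, 1 rose in the calcium-free arm, 33 were higher in the siPKC difference and 6 in the p65ko difference. With no filter 0 rose in the calcium-free arm. With a length trend removed 1 rose there and 2 were lower in the p65ko difference.

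Same-numbered libraries share only a number: their deviations correlated at -0.0992 to 0.133 over 11 comparisons. With a replicate block 1 member rose in the calcium-free arm and 6 were higher in the p65ko difference. LLC MLKL allowed no block.

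Leaving out 1 library gave 57 to 69 falls in NIH3T3 MLKL (57 without untreated replicate 2), 5 to 8 falls and 0 to 1 rises in the calcium-free arm, 2 to 3 falls and 1 to 1 rises in LLC MLKL, and 1 to 5 higher in calcium-free medium (1 without complete-medium replicate 1). The calcium difference kept 17 to 26 lower (17 without untreated replicate 1), the siPKC difference 2 to 5 lower (5 without siCTR untreated replicate 2) and 4 to 26 higher (4 without siPKC untreated replicate 1, 8 without siCTR AP20187 replicate 2), and the p65ko difference 2 to 7 higher. The single treated siPKC library could not be left out. Of 149 results on named members, 0 reversed in any setting, and 55 of 606 values without 1 library missed the threshold.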

Other observations

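Other runs of neighbouring members were not described above. On chromosome 7 at 127233061 to 127885996 lie 10 members, among them Zfp747, which rose in all 5 NIH3T3 AP20187 arms of complete medium, and Zfp688, Zfp768 and Zfp629, which fell in all of the MLKL, GSDMD and digitonin arms but LLC MLKL. On chromosome 9 at 19622102 to 20605409 lie 6 members, all with a KRAB box pattern, among them Zfp317, which rose in those 5 arms, and Zfp846, which fell in them. Neighbours thus moved in opposite directions in both runs.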
